A study of Homo sapiens with 15 samples.

Results

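The acute exposure of BEAS-2B cells to polyethylene terephthalate nanoplastics (PET-NPLs) is described here across all expressed genes. The members are defined by their sample labels: 2 libraries of cells exposed for 24 h and 2 libraries of cells left unexposed for the same 24 h, which are 4 of the 15 samples of the series. RNA-seq of the series followed exposed and unexposed cells through long-term exposure, and the 24 h samples stand for its acute stage. BEAS-2B is an established human bronchial epithelial line, immortalised with a viral hybrid, and the exposed cells received PET-NPLs, nanosized particles made from plastic goods, at 50 µg/mL. The control cells of the same line were cultured in parallel without particles. The 4 samples taken after 15 weeks, 2 exposed to the same 50 µg/mL and 2 unexposed, belong to the same batch 1 in the labels and are used only for comparison. The labels do not say whether the 2 replicates of a group came from separate cultures, so the p-values below measure only the spread between these libraries, which may be technical.

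Airway epithelial cells take up particles through clathrin and caveolin vesicles and deliver them to lysosomes. Particles that carry reactive surfaces, metals or organic compounds are known to engage a small number of transcriptional programmes: the antioxidant programme of NRF2, metallothioneins under the metal sensor MTF1, cytochrome P450 genes under the aryl hydrocarbon receptor, cytokines under NF-kB, and the stress programmes of p53, of the endoplasmic reticulum (ER) and of heat shock. The question that the 24 h libraries address is whether any of these genes, or any other expressed gene, had changed within a day of exposure, and how large a change could have been missed.

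The label of bronchial epithelial cells was checked against marker genes. Simple keratins of epithelial cells were abundant, with 31739 to 40418 counts of KRT7 and 12506 to 14672 counts of KRT8 in the 4 libraries. The epithelial adhesion genes EPCAM and CDH1 had only 7 to 27 counts, and GRHL2, an epithelial identity factor, had none, which allows at most 3 counts in a library. Airway basal markers (KRT5, KRT14, KRT15, TP63 and NGFR) had 0 to 13 counts each, and the secretory marker SCGB1A1 had none. Mesenchymal genes ranged widely. VIM had 33703 to 41843 counts and SPARC 19579 to 25575, but COL1A1 had 197 to 548 and COL3A1 only 1 to 8. The epithelial marker ESRP2 had 313 to 401 counts. The defining leukocyte genes PTPRC and CD3E had 0 to 4 counts, while CD68 and CD14, which other cells also express, had 160 to 191 and 119 to 168. The 5 endothelial markers had 0 to 10 counts each, and of 6 skeletal muscle markers only MYH3 passed 12 counts in a library, with 114 to 160. Among the markers, no epithelial marker of the 7 tested, and 1 mesenchymal marker of the 9 tested, PDGFRB, had an unadjusted p under 0.05 by edgeR. PDGFRB was higher in exposed cells, and 0.872% of all genes tested had such a p on that side.

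Total counts on genes were 27255398 and 28605451 in the controls and 23143202 and 25882097 in exposed cells, so that a gene at 1 CPM (counts scaled to library size) had 23 to 29 counts. Both exposed libraries were shallower than both controls. The 6 most abundant small noncoding RNAs took 12.1% and 12.2% of the counts in the controls and 12.9% in each exposed library, and the 95% Wilson interval of such a share was at most 0.0145 percentage points wide on each side, for counting error only. Genes for ribosomal proteins took 3.03% and 3.22% against 3.13% and 3.48%, and replication-dependent histone genes took 1.85% and 1.93% against 1.57% and 1.96%. With 2 libraries a group, an exact permutation test of any such share cannot go below a two-sided p of 0.3333.

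Exposed replicate 2 stood apart from the other 3 libraries in a few genes. The mitochondrial 16S ribosomal RNA RNR2 was at 16.4 and 7.88 CPM in the controls, 10.1 CPM in exposed replicate 1 and 223.7 CPM in exposed replicate 2. The 12S ribosomal RNA RNR1 was at 5.33, 2.77, 1.87 and 93.8 CPM in the same order, and the U1 small nuclear RNA gene RNU1-4 at 6.28, 4.80, 4.73 and 57.3 CPM. In each of these genes a single library was high and exposed replicate 1 lay below at least 1 control. RPS16, a small-subunit ribosomal protein, went the other way, with 63.2, 66.4, 57.6 and 20.5 CPM.

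The same library also held counts of genes known from the lining of the stomach. LIPF, gastric lipase, had 0, 0 and 0 counts in the other libraries (controls, then exposed replicate 1) and 54 in exposed replicate 2. PGC, a pepsinogen, had 1, 0 and 0 counts there and 24 in exposed replicate 2. A list of 14 stomach genes, drawn up after these values were seen, summed to 43 and 18 counts in the controls, 11 in exposed replicate 1 and 136 in exposed replicate 2, or 1.58, 0.629, 0.475 and 5.26 CPM before TMM scaling. For the 7 genes of the list that encode gastric lipase, pepsinogens and gastrokines, the sums were 2, 0, 0 and 111, while the acid pump genes ATP4A and ATP4B (2 to 9 counts) and gastrin (0 counts) did not separate this library. The most abundant member in the other 3 libraries was MUC6, a gel-forming mucin, with 23, 11 and 5 counts. None of the 7 genes passed the filter on low counts over the 4 libraries, so none entered the test of those libraries. What part, if any, the source of these counts has in other differences of exposed replicate 2 was not tested.

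Replicates of 1 group differed from each other as much as from the other group. Among the 13112 tested genes with an average of at least 1 CPM, 835 differed by at least 1.5-fold between the 2 controls and 683 between the 2 exposed libraries. Across the groups the same count ran from 521 (control replicate 2 and exposed replicate 1) to 739 (control replicate 2 and exposed replicate 2). The median absolute log2 difference was 0.148 between the controls, 0.168 between the exposed libraries and 0.135 to 0.171 across groups. No pair of libraries was a duplicate, since the chi-square per gene was at least 8.58. The largest gaps between the controls included genes of chromatin, splicing and lipid synthesis: ZMIZ1, a transcriptional coregulator, was at 60.4 and 22.7 CPM in the controls and 39.8 and 44.6 CPM in exposed cells, and SRRM2, a splicing factor, at 127.1 and 50.4 against 68.4 and 111.2 CPM. FASN, the fatty acid synthase, had 202.0 and 82.4 CPM in the controls and 125.8 and 148.9 CPM in exposed cells. For each of these genes both exposed libraries lay between the 2 controls.

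No gene was called differentially expressed after 24 h. The test was edgeR's quasi-likelihood test on the 4 libraries over 15017 genes that passed its filter on low counts, with Benjamini-Hochberg adjustment at 0.05, and the share called was 0% (0 genes). DESeq2 and limma-voom on the same libraries also called 0 genes, with 150 and 399 at an unadjusted p under 0.05. The smallest unadjusted p by edgeR was 5.75e-04 and the smallest adjusted p 0.9998. With 3 libraries, a group of 1 being assumed to vary like the other, edgeR called 1 gene without control replicate 1 (RNR2), 2 without control replicate 2, 56 without exposed replicate 1 and 10 without exposed replicate 2. The fits without exposed replicate 1 and without exposed replicate 2 gave a median of 823.5 and 15547 degrees of freedom a gene. The main fit gave 11.98, so in those fits a gene's own replicate spread had little weight. The calls that rested on exposed replicate 2 alone were led by RNR2, RNR1, RNU1-4 and RPS16 and held LIPF and PGC, and those that rested on exposed replicate 1 alone held SLC38A2, an amino acid transporter. SLC38A2 was at 1404 and 1289 CPM in the controls and 2179 and 1090 CPM in exposed cells, so the exposed libraries lay on either side of the controls. An unadjusted p under 0.05 was reached by 131 genes higher in exposed cells (0.872% of those tested) and by 266 genes lower (1.77%), together 2.64% of the genes. With upper-quartile scaling in place of TMM, the split was 177 higher and 197 lower. It rested on single libraries too, and turned to 459 higher and 184 lower without control replicate 1, against 117 higher and 431 lower without control replicate 2. The median log2 fold change (exposed minus control) over all genes was -0.01, the median absolute value 0.10, and 95% of genes lay within 0.56 of 0. The 2 exposed libraries lay above both controls in 1857 genes (12.4%) and below both in 2415 (16.1%), together 28.45%. If the group labels made no difference, a gene would separate in one direction or the other with a probability of 0.3333. Of the genes whose groups did not overlap and that averaged at least 1 CPM, only 6 were at least 2-fold higher and 8 at least 2-fold lower. Among genes outside the test, none had 0 counts in both controls and at least 10 in both exposed libraries, and none the reverse; 7238 of these 13378 genes had no count in any of the 4 libraries.

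**Figure D1:**
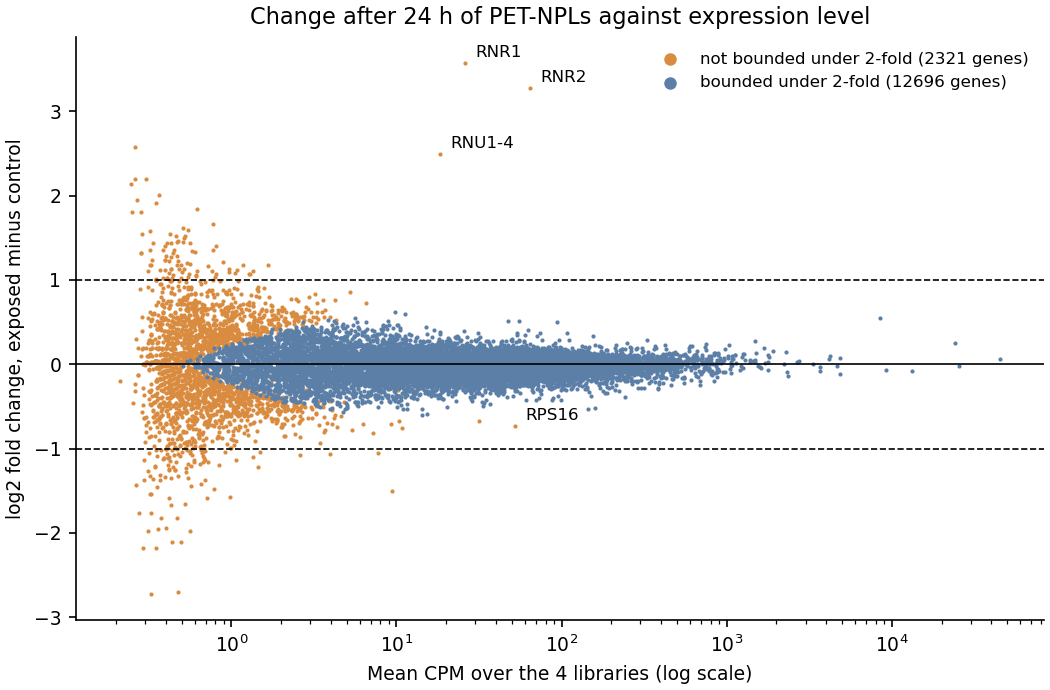
Change of each of the 15017 tested genes after 24 h: the horizontal axis is the mean CPM over the 4 libraries on a log scale and the vertical axis the log2 fold change, exposed minus control, with dashed lines at 2-fold. Blue points are the 12696 genes whose change was bounded under 2-fold and orange points the other 2321, which lie mostly at low levels; the RNAs RNR1, RNR2 and RNU1-4 stand apart because of exposed replicate 2.

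The libraries also bounded the changes that could have been missed. A change was taken as bounded under 2-fold when one-sided tests against a 2-fold rise and against a 2-fold fall, on the same edgeR fit, both passed after Benjamini-Hochberg adjustment over all genes. This held for 12696 of the 15017 genes (84.5%). A bound under 1.5-fold held for 10072 genes (67.1%), and a bound under 4-fold for 14806 (98.6%). The 95% interval of the fold change lay wholly within 2-fold in 12239 genes. In the other 2321 genes this test could not bound the change under 2-fold. With exposed replicate 2 left out, a bound under 2-fold held for 76.9% of the 15547 genes then tested.

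The bound depended on the level of the gene. At 100 CPM and over, all 2146 genes were bounded under 2-fold and 2134 under 1.5-fold, and the median 95% interval reached 1.17-fold to either side of the estimate. Between 10 and 100 CPM, 7128 of 7136 genes were bounded under 2-fold and 6834 under 1.5-fold, with a median reach of 1.21-fold. Between 1 and 10 CPM, 3238 of 3830 genes were bounded under 2-fold but only 1104 under 1.5-fold, and the reach was 1.49-fold. Below 1 CPM, 184 of 1905 genes were bounded under 2-fold and none under 1.5-fold, and the reach was 2.25-fold. Changes of scarce transcripts were thus the ones most open to being missed, and the cytokines IL1A, IL1B and CSF2 and the transcription factor FOSB lay in that range or close to it.

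The change that had to be measured for a call was larger than these intervals. A gene that changed alone needed a p of 3.33e-06 to pass the adjustment, which at the median standard error stood for a 1.81-fold change at 100 CPM and over, 2.05-fold at 10 to 100 CPM, 4.40-fold at 1 to 10 CPM and 20.5-fold below 1 CPM. If 100 genes had changed together, the p needed was 3.33e-04 and the folds were 1.44, 1.55, 2.48 and 6.35. These are measured folds that just pass, so a true change of that size could still have been missed. Of the genes at 10 CPM and over, 8 were not bounded under 2-fold: RNU1-4, RNR1, RNR2, RPS16, MIR3064, MIR3648-1, MIR1244-2 and the entry with Entrez number 105376337, which carries no symbol in the annotation used here. In RNU1-4, RNR1, RNR2 and RPS16 exposed replicate 2 was the library that differed. MIR1244-2 followed the same pattern, with 37.7, 39.5, 34.3 and 14.4 CPM. Reads on such short entries cannot be told apart from those of longer transcripts that overlap them or of near-identical copies, as RPS16, RNU1-4 and the miRNA entries have.

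**Figure D2:**
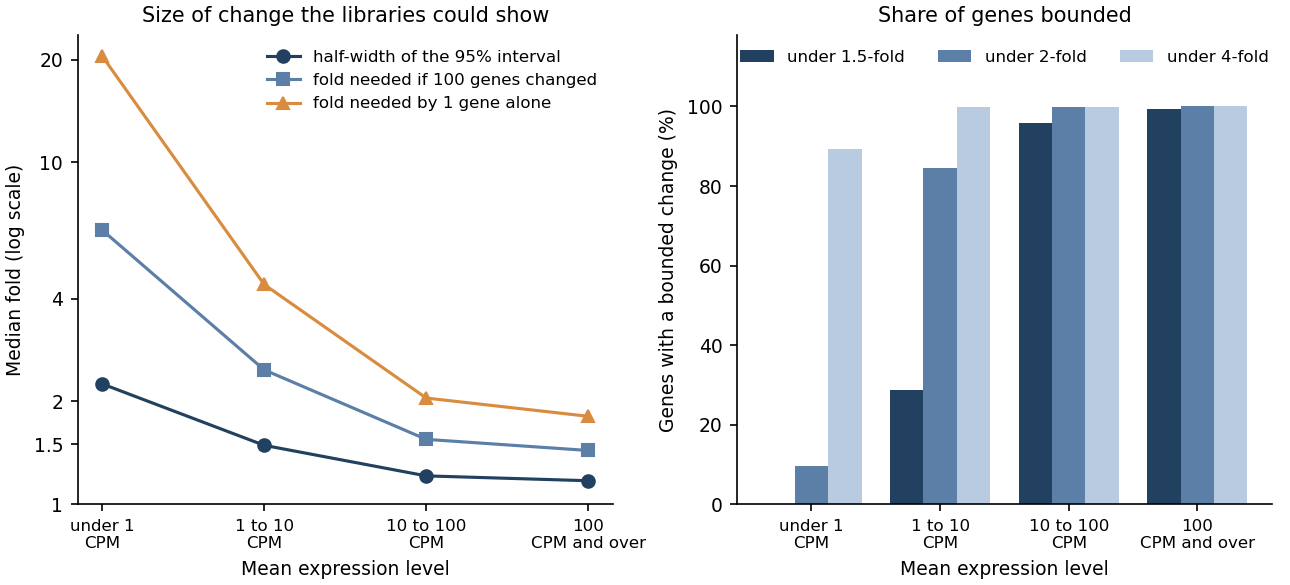
Bounds by expression level over 1905, 3830, 7136 and 2146 genes from the lowest to the highest level. Left, on a log axis, the median reach of the 95% interval in fold to either side (labelled as its half-width) and the median fold a gene needed to be called, alone or among 100 changed genes; right, the percentage of genes bounded under 1.5-, 2- and 4-fold, which for 2-fold went from 9.66% below 1 CPM to 100% at 100 CPM and over.

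A comparison in which many genes differed came from the same batch and the same number of libraries. The 2 controls of 15 weeks were compared with the 2 controls of 24 h by the same test, a comparison that shares the 24 h controls with the exposure comparison. It called 6800 of 15565 genes (43.7%), 3600 higher and 3200 lower at 15 weeks, and the smallest fold called was 1.16. With so many genes called, the p that passes the adjustment is far less strict than at 24 h, so the shares called below do not gauge which folds the 24 h test would have called. Of the genes that differed by 1.5- to 2-fold, it called 58.3% at 1 to 10 CPM, 99.7% at 10 to 100 CPM and all 252 at 100 CPM and over. Of the genes that differed by 2- to 4-fold, it called 39.8% below 1 CPM and 97.6% at 1 to 10 CPM. The median absolute log2 fold change was 0.37 in that comparison and 0.10 in the exposure at 24 h. The biological coefficient of variation, the spread between replicates beyond counting, was 0.108 at 24 h and 0.0954 in the 2 groups of controls.

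Of 28 response genes that stand for the programmes named above, none had an unadjusted p under 0.05 by edgeR, and 25 were bounded under 2-fold, against 84.5% of all genes. The exceptions were the scarce transcripts IL6, GDF15 and FOS. HMOX1, heme oxygenase 1, was at 109.3 and 127.0 CPM in the controls and 126.9 and 123.2 CPM in exposed cells, a fold change whose 95% interval ran from 0.899 to 1.25. NQO1, a quinone reductase, was at 396.1 and 429.4 against 431.0 and 465.2 CPM, with an interval from 0.927 to 1.27. Both exposed libraries were above both controls in NQO1 but not in HMOX1. GCLM, a subunit of the enzyme that limits glutathione synthesis, had 85.1 and 86.2 against 91.1 and 81.4 CPM.

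The 4 metal and xenobiotic response genes were each bounded under 2-fold. MT2A, a metallothionein, was at 85.0 and 81.2 CPM in the controls and 88.8 and 76.5 CPM in exposed cells, and its interval ran from 0.840 to 1.18. MT1X had 46.7 and 54.9 against 51.5 and 39.2 CPM, with an interval from 0.719 to 1.11. CYP1B1, a cytochrome P450 under the aryl hydrocarbon receptor, was at 253.7 and 252.5 against 259.3 and 196.3 CPM, so that exposed replicate 1 lay above both controls and exposed replicate 2 below. CYP1A1, the most inducible gene of that receptor, was scarce, with 2.12, 2.10, 1.87 and 2.98 CPM, and its interval reached from 0.726 to 1.83.

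Among inflammatory transcripts, the scarce IL6 and CXCL8 had wide intervals and the more abundant NFKBIA a narrower one. IL6, an interleukin, had 1.10 and 1.05 CPM in the controls and 2.56 and 1.20 CPM in exposed cells. Its log2 fold change was 0.80 ± 0.41 (SE) with an interval from 0.940- to 3.22-fold and an unadjusted p of 0.0737 by edgeR, and most of the difference came from exposed replicate 1. With 1 replicate left out, that log2 fold change ran from 0.16 to 1.25. CXCL8, a neutrophil chemokine, had 3.07 and 3.57 against 4.43 and 3.87 CPM, with an interval from 0.877 to 1.77. NFKBIA, the NF-kB inhibitor that NF-kB itself induces, had 51.2 and 55.9 against 75.7 and 54.1 CPM, with an interval from 0.971 to 1.51. In NFKBIA exposed replicate 1 was high and exposed replicate 2 lay between the controls. In CCL2, a monocyte chemokine, exposed replicate 1 was also high but exposed replicate 2 lay below both controls, with 2.78, 2.59, 5.17 and 2.44 CPM.

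The response genes of cell stress, uptake and growth were bounded under 2-fold except GDF15 and FOS. GDF15, a stress cytokine under p53, had 0.986 and 1.72 CPM in the controls and 0.868 and 0.928 CPM in exposed cells, below both controls, with an interval from 0.356 to 1.24. CDKN1A, the p53 target that halts the cell cycle, was at 31.6 and 34.9 CPM in the controls and 32.4 and 35.5 CPM in exposed cells, with an interval from 0.850 to 1.23. HSPA5, the main ER chaperone, had 216.7 and 156.3 against 169.7 and 170.2 CPM, and both exposed libraries lay between the controls. CAV1, the coat protein of caveolae, had 1256 and 1281 against 1287 and 1164 CPM, and CLTC, the clathrin heavy chain, 1669 and 1525 against 1581 and 1539 CPM. The intervals of these last genes ran from 0.817 to 1.14 and from 0.824 to 1.16. LAMP1, a lysosomal membrane protein, had an interval from 0.821 to 1.12, and MCM2, a replication licensing factor, from 0.867 to 1.18. The proliferation marker MKI67 was at 537.2 and 312.9 CPM in the controls and 398.6 and 451.0 CPM in exposed cells, which gave a log2 fold change of -0.00066 with an interval from 0.750 to 1.33.

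**Figure D3:**
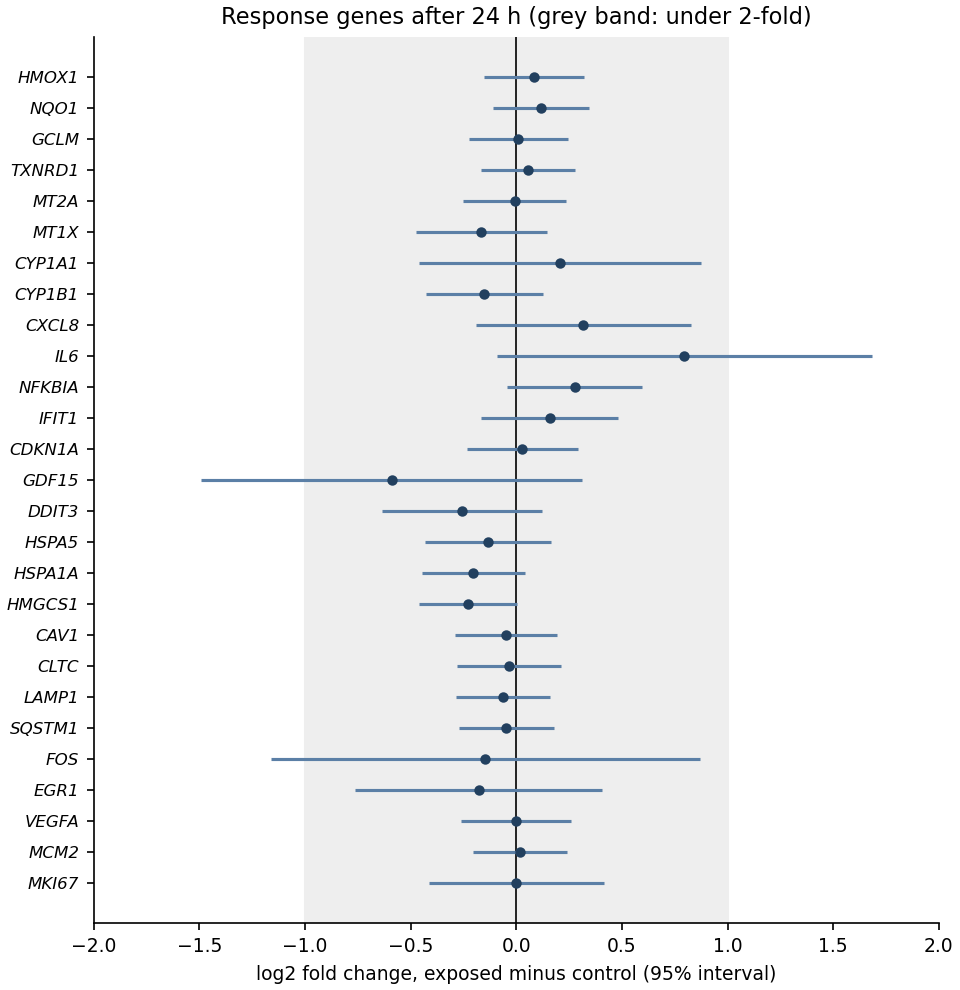
Log2 fold change after 24 h (points, exposed minus control) with its 95% interval (lines) for 27 of the response genes, n = 2 libraries a group; the grey band marks changes under 2-fold. All intervals cross 0, and those of IL6, GDF15 and FOS, scarce transcripts, leave the band.

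The longer lists of the same programmes held few genes with a small p, and each count below stands against 0.872% of all genes on the higher side and 1.77% on the lower side. Counts of bounded genes stand against 84.5% of all genes for 2-fold and 67.1% for 1.5-fold, shares that rise with the level of the gene. Where 1 replicate was left out, the filter on low counts was run again and more genes were tested. The members behind a list's median could then differ from those of the main fit. Of 26 NRF2 and antioxidant genes, 2 had an unadjusted p under 0.05, both higher in exposed cells, against 0.872% of all genes on that side, and the list's median log2 fold change was 0.09, against -0.01 over all genes tested. That median lay between 0.05 (exposed replicate 2 left out) and 0.16 (control replicate 2 left out). The 2 genes were reductases of the aldo-keto family at low levels: AKR1B10 had 0.402 and 0.140 CPM in the controls and 0.781 and 1.16 CPM in exposed cells (log2 fold change 1.84 ± 0.60 SE, unadjusted p 0.00744 by edgeR), and AKR1C3 had 0.804 and 1.23 against 3.34 and 1.31 CPM (1.18 ± 0.45, unadjusted p 0.0212, and 0.37 without exposed replicate 1). The exposed libraries lay above both controls in 8 of the 26 genes, against 12.4% of all genes, and below both in none. The related AKR1C1 and AKR1C2, which share sequence with AKR1C3, had 0.385 to 1.13 CPM in the 4 libraries, and their groups overlapped. Copies of this family can share reads, so their counts are uncertain.

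All 7 tested genes of the metallothionein and zinc export list had log2 fold changes below 0, as had 7999 of all 15017 genes, and 2 had an unadjusted p under 0.05, against 1.77% of all genes on that side. The median was -0.21. With 1 replicate left out it ran from -0.32 (without control replicate 2) to -0.28, over members that may differ from those of the main fit. The 2 genes were SLC30A1, the zinc exporter, with 41.1 and 41.2 CPM in the controls and 30.2 and 34.9 CPM in exposed cells, and MT1F at 0.438, 0.560, 0.217 and 0.0387 CPM. The change of SLC30A1 was -0.34 ± 0.12 (SE, unadjusted p 0.0155 by edgeR). The 3 members that the filter left out were MT1A, MT1G and MT1H. Among the 9 tested aryl hydrocarbon receptor and xenobiotic genes none had an unadjusted p under 0.05, all 9 were bounded under 2-fold, and the median was 0.05. That median ran from 0.031 without exposed replicate 1 to 0.065 without exposed replicate 2.

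Of 17 tested NF-kB, cytokine and chemokine genes, 10 were bounded under 2-fold and 1 had an unadjusted p under 0.05. This was LIF, a cytokine of the interleukin 6 family, at 13.0 and 12.9 CPM in the controls and 8.51 and 9.43 CPM in exposed cells (log2 fold change -0.53 ± 0.16 SE, unadjusted p 0.00623 by edgeR). The members that could not be bounded were CCL2, IL1A, IL1B, CXCL3, CXCL2, CSF2 and IL6, and TNF, PTGS2, CSF3, CCL20 and IL33 were too scarce to test. The list's median was 0.11, and it turned to -0.12 without exposed replicate 1. Of 19 tested interferon-stimulated genes none had an unadjusted p under 0.05, and the median of 0.02 was -0.03 without exposed replicate 1 and 0.13 without exposed replicate 2; IFIT1, an antiviral RNA-binding protein, had 12.3 and 12.8 against 13.9 and 14.0 CPM.

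The stress lists held few small p-values. Of 24 genes of the unfolded protein response, ATF4 and SDF2L1 had an unadjusted p under 0.05, in opposite directions, against 0.872% of all genes on the higher and 1.77% on the lower side. ATF4, the effector of the integrated stress response, was at 279.4 and 314.0 CPM in the controls and 370.7 and 354.1 CPM after exposure, which is a log2 fold change of 0.29 ± 0.10 (SE, unadjusted p 0.0176 by edgeR). SDF2L1, an ER luminal protein, had 19.9 and 20.5 against 18.1 and 12.7 CPM. DDIT3, a target of ATF4, had 12.8 and 17.2 against 11.9 and 13.3 CPM, and its groups overlapped. Of 22 p53 targets 1 had an unadjusted p under 0.05, ZMAT3, with 20.8 and 20.7 CPM in the controls and 17.9 and 14.1 CPM in exposed cells. Its change was -0.38 ± 0.15, and -0.21 without exposed replicate 2. Of the 22, 21 were bounded under 2-fold. None of 13 tested heat shock chaperones had one, and all 13 were bounded under 1.5-fold.

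Most lipid genes were bounded under 1.5-fold, as were 67.1% of all genes. The share of all genes was 95.8% at 10 to 100 CPM and 99.4% at 100 CPM and over. Of 24 cholesterol synthesis and uptake genes, 23 were bounded under 1.5-fold; 19 had values below 0, the median was -0.07 (-0.0049 without exposed replicate 2, -0.01 without control replicate 2 and -0.11 without exposed replicate 1), and the exposed libraries lay below both controls in 8, against 16.1% of all genes. SC5D, a late enzyme of cholesterol synthesis, was the only one with an unadjusted p under 0.05, at 41.2 and 41.1 CPM in the controls and 34.8 and 32.1 CPM in exposed cells (log2 fold change -0.30 ± 0.11 SE). HMGCS1, which feeds the pathway, had 100.4 and 106.8 against 92.9 and 84.2 CPM and an unadjusted p of 0.0544 by edgeR. No gene of 10 for fatty acid synthesis had an unadjusted p under 0.05.

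Most genes of particle uptake and degradation were bounded under 1.5-fold too. This stands against 67.1% of all genes, 95.8% of those at 10 to 100 CPM and 99.4% of those at 100 CPM and over. All 26 caveolin, clathrin and endocytic genes were bounded under 1.5-fold, from ARF6 at -0.29 to CLTA at 0.17 on the log2 scale, and none had an unadjusted p under 0.05. Of 25 lysosome and autophagy genes, 24 were bounded under 1.5-fold and none had an unadjusted p under 0.05. SQSTM1, an autophagy receptor, was at 289.0 and 324.8 CPM in the controls and 299.5 and 294.6 CPM in exposed cells.

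Of 14 tested immediate early genes 1 had an unadjusted p under 0.05, DUSP1, a phosphatase that switches off MAP kinases. It was at 50.9 and 56.6 CPM in the controls and 77.2 and 64.7 CPM after exposure, which is a log2 fold change of 0.40 ± 0.12 (SE, unadjusted p 0.00617 by edgeR). FOS and FOSB, partners in AP-1, were too scarce to bound, at 0.175 to 1.48 CPM. Of 21 hypoxia and glycolysis genes none had an unadjusted p under 0.05; VEGFA, the endothelial growth factor, was at 36.5 and 42.7 against 40.1 and 39.0 CPM.

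All 23 genes of DNA replication and all 19 mitotic genes were bounded under 1.5-fold, and none had an unadjusted p under 0.05. Over the mitotic genes the median log2 fold change was 0.09, and the exposed libraries lay above both controls in 11 of 19, against 12.4% of all genes, and below both in none. KIF20A, a mitotic kinesin, was the highest of them, with 392.3 and 414.7 CPM in the controls and 444.8 and 468.6 CPM in exposed cells. MKI67, another of the 19, did not follow, as given above, and its 2 controls lay far apart.

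Of 65 tested histone genes 51 had values below 0, against 7999 of all 15017 genes, with a median of -0.10. The exposed libraries lay below both controls in 18 of them, against 16.1% of all genes, and above both in 1, against 12.4%. H2AC25 (-0.42) and H4C11 (-0.25) had an unadjusted p under 0.05 on the lower side and H4C12 (0.51) on the higher side, against 1.77% and 0.872% of all genes. H4C12 was at 46.9 and 44.5 CPM in the controls and 43.0 and 87.1 CPM in exposed cells, so that its groups overlapped, and its change was -0.09 without exposed replicate 2. The summed histone level was 18448 and 19297 CPM in the controls and 15795 and 19637 CPM in exposed cells, so that exposed replicate 1 was low and exposed replicate 2 was high. Without exposed replicate 1 that median was 0.03, and without exposed replicate 2 it was -0.25. Of 79 tested cytosolic ribosomal protein genes 63 had values above 0, against 7018 of all 15017 genes, with a median of 0.09; the groups' summed levels overlapped, with 30179 and 32249 against 31444 and 34850 CPM. That median ran from 0.01 without exposed replicate 2 to 0.15 without control replicate 2. Of these genes 1 had an unadjusted p under 0.05 on the higher side, RPL13A at 224.8 and 231.5 against 281.8 and 263.6 CPM, and 2 on the lower side, RPLP1 (-0.37) and RPS16 (-0.74), both lowest in exposed replicate 2. With 1 replicate left out, the change of RPLP1 ran from -0.73 to -0.08 and that of RPS16 from -1.66 to -0.17. Of 78 tested nuclear genes of oxidative phosphorylation (OXPHOS), NDUFC2 and NDUFA5, subunits of complex I, had an unadjusted p under 0.05, both lower, against 1.77% of all genes on that side, and the median was 0.04. NDUFC2 was at 38.1 and 40.9 CPM in the controls and 34.2 and 23.3 CPM in exposed cells. With 1 replicate left out, its change ran from -0.76 to -0.21. The OXPHOS median ran from 0.0092 without control replicate 1 to 0.11 without control replicate 2. The 12 tested mitochondrially encoded messages had a median of 0.11, which was 0.27 without control replicate 1 and -0.10 without control replicate 2, and none had an unadjusted p under 0.05.

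**Figure D4:**
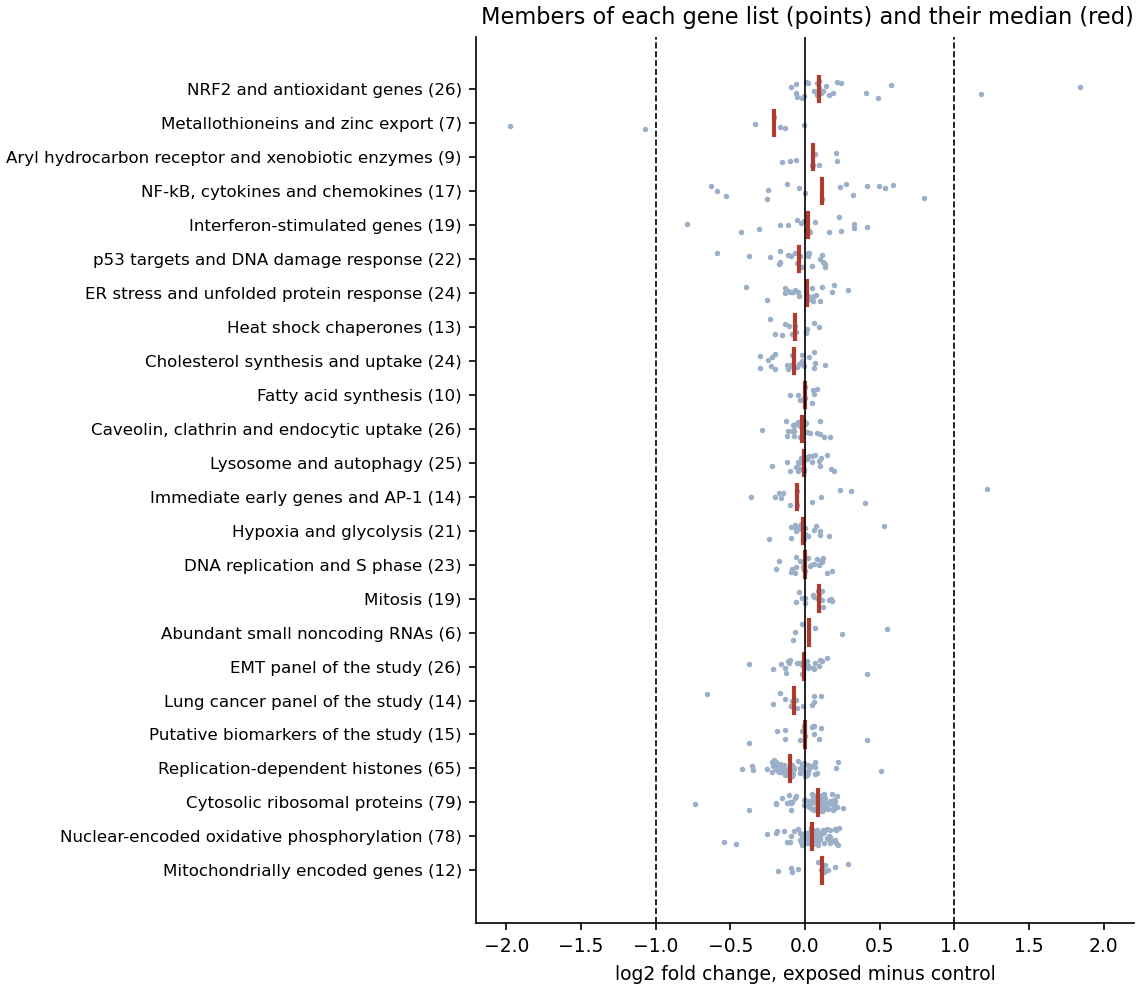
Log2 fold change after 24 h (exposed minus control) of the tested members of 24 gene lists (points, the number tested in brackets) with each list's median (red bars); dashed lines mark 2-fold. All 24 medians lie between -0.21 and 0.11, and most members beyond 2-fold are scarce transcripts such as AKR1B10 and MT1F; the lists were chosen with earlier results of these data known.

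The genes with the smallest p-values came from no single group. Where the groups did not overlap and the mean reached 1 CPM, the smallest p belonged to the symbol-less entry 105376337, with 14.1 and 13.2 CPM in the controls and 7.595 and 8.543 CPM in exposed cells (log2 fold change -0.76 ± 0.16 SE). LOC100289230, a long noncoding RNA on chromosome 5, followed, with 5.37 and 5.36 against 2.30 and 2.82 CPM (-1.06 ± 0.23, unadjusted p 6.11e-04 by edgeR). ALG10B, a glucosyltransferase of N-glycan synthesis on chromosome 12 (chr12:38316687-38329721, GRCh38), had 18.6 and 18.2 against 12.37 and 12.02 CPM (-0.59 ± 0.14, unadjusted p 0.00138). In each of these the replicates of a group lay close together and the groups well apart, yet after adjustment over 15017 genes no p fell below 0.9998. The others on the lower side were MIR3064, the entry 284702, TYW5, CAPN10-DT and FPGT, with log2 fold changes from -0.71 to -0.51.

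On the higher side, again among genes at 1 CPM or more whose groups did not overlap, the 8 smallest p-values were those of LINC01303, ATXN7L2, RNVU1-6, SNORA48, DUSP1, SNORD14B, BEND3P3 and HYDIN. LINC01303, a long noncoding RNA, had 3.25 and 4.13 CPM in the controls and 7.81 and 5.61 CPM in exposed cells (log2 fold change 0.86 ± 0.24 SE, unadjusted p 0.00344 by edgeR). ATXN7L2, a relative of the SAGA subunit ataxin 7, had 4.06 and 5.74 against 7.86 and 8.39 CPM. Of the 8, DUSP1 alone averaged more than 10 CPM in each group. Under the same limits, the largest change by size was in a further entry with no symbol, at -1.50 and a mean of 9.40 CPM. The next largest changes were in genes near 1 CPM. They were PPP2R2B (1.18), SPTBN5 (1.12) and HYDIN (1.11) with AKR1C3 on the higher side, and STARD8 (-1.22), MFAP4 (-1.14) and GLTPD2 (-1.10) on the lower side. With 1 replicate left out, MFAP4 moved to -0.57 and GLTPD2 to -0.59, each without its higher control. The entry at -1.50 had replicates of each group far apart, with 18.4 and 9.49 CPM in the controls and 2.04 and 7.69 CPM in exposed cells. Its change was -0.85 without exposed replicate 1 and -2.77 without exposed replicate 2.

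**Figure D5:**
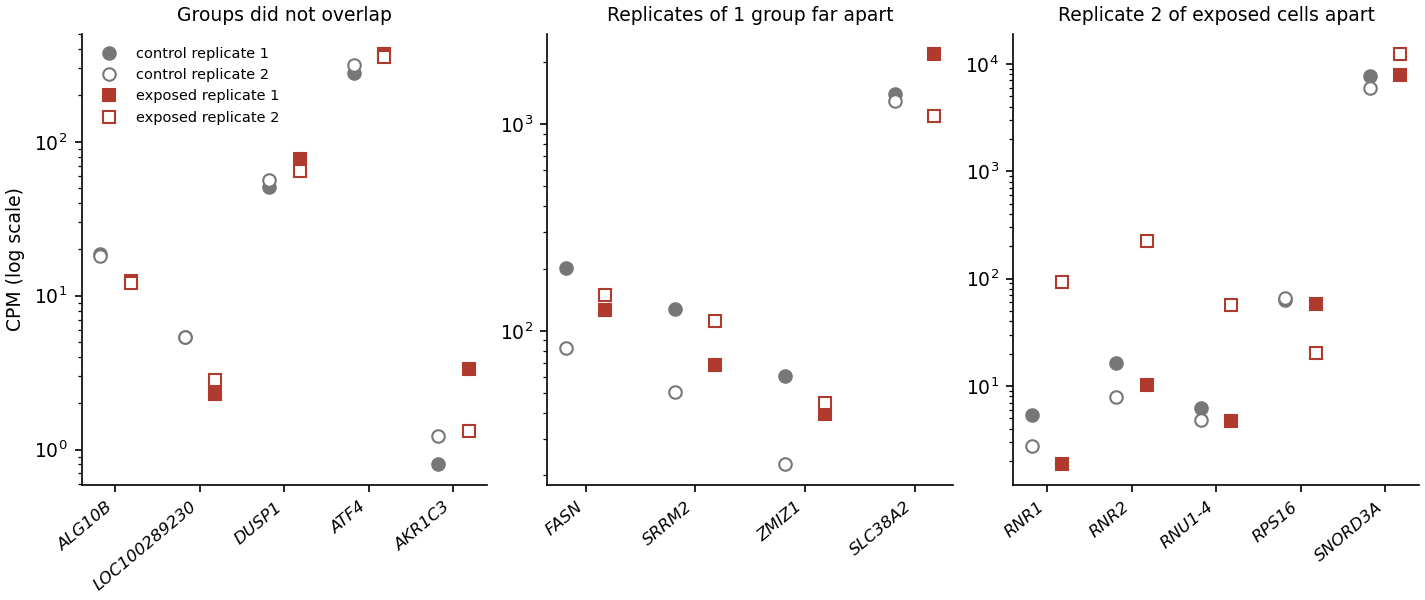
CPM on a log axis in the 4 libraries at 24 h for genes whose groups did not overlap (left), genes whose replicates of 1 group lay far apart (middle) and genes in which exposed replicate 2 stood apart (right); grey circles are controls and red squares exposed cells, filled for replicate 1 and open for replicate 2. The gap between groups in ALG10B or DUSP1 is smaller than the gap between the 2 controls in FASN or between the 2 exposed libraries in RNR2.

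Genes that the study follows as panels at later stages had few wide intervals after 24 h. None of 26 genes of its epithelial-mesenchymal transition (EMT) panel, 14 tested genes of its lung cancer panel and 15 putative biomarkers had an unadjusted p under 0.05, and the medians were -0.0040, -0.08 and 0.00067. Each of these turned sign with some replicate left out, the lung cancer panel to 0.07 without control replicate 1. These panels were drawn up by the study with its later samples in view. All 26 EMT genes were bounded under 2-fold by the one-sided tests. FN1, fibronectin, was at 2626 and 2151 CPM in the controls and 1938 and 2546 CPM in exposed cells, and CDH2, N-cadherin, at 161.7 and 158.2 against 162.4 and 161.7 CPM. MET, a receptor tyrosine kinase, had 442.5 and 427.6 against 448.7 and 459.1 CPM, with a log2 fold change of 0.06. COL1A1, a collagen chain, and VCAN, a proteoglycan, had the widest intervals of the biomarkers, from -1.08 to 0.32 and from -0.25 to 1.08 on the log2 scale. MUC1, a mucin of the lung cancer panel, was at 2.08 and 0.455 against 0.825 and 0.773 CPM and was not bounded under 2-fold. VCAN and COL1A1 passed the one-sided tests against 2-fold by a small margin (adjusted p 0.0463 and 0.0452 by edgeR), although the intervals above reach just past 2-fold, and did not pass those against 1.5-fold.

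Whether the changes at 24 h and at 15 weeks differed was tested with an interaction term in an edgeR fit of the 8 libraries of batch 1. It called 4 of 16077 genes (0.0249%), the 2 entries without a symbol named above, KRT7 and PTGFR. With the replicate block, with all 15 samples in 1 fit, without control replicate 1 of 24 h or without exposed replicate 2 of 15 weeks, it called 0 genes; with other single libraries left out it called 1 to 121. KRT7, a simple keratin (chr12:52233243-52255853), was at 1300 and 1487 CPM in the 24 h controls and 1437 and 1482 CPM in the 24 h exposed cells on the scale of that fit. At 15 weeks it was at 25.1 and 13.7 CPM in the controls and 6.80 and 5.71 CPM in exposed cells. So the groups overlapped at 24 h and did not at 15 weeks, by when both had lost most of the transcript, and the difference between the changes was -1.69 ± 0.26 (SE, adjusted p 0.0313). PTGFR, the prostaglandin F receptor, was at 22.01 and 24.95 against 20.3 and 17.7 CPM at 24 h and at 2.74 and 2.43 against 0.660 and 0.526 CPM at 15 weeks (difference -1.80 ± 0.31, adjusted p 0.0372). The entry 105376337 went from lower in exposed cells at 24 h to higher at 15 weeks, where it had 10.8 and 11.8 CPM in the controls and 16.9 and 17.8 CPM in exposed cells (difference 1.35 ± 0.20, adjusted p 0.0313).

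The 8 genes named above with the smallest p-values on the lower side at 24 h all had the other sign at 15 weeks against their own controls. On the higher side all 8 but ATXN7L2 (0.19) did so. Some values at 15 weeks were near 0 on either side, as in SNORA48 (-0.0093), SNORD14B (-0.03) and FPGT (0.06). The share of all genes with opposite signs at 24 h and 15 weeks was not counted, so these signs do not measure a reversal. ALG10B had a log2 fold change of 0.45 at 15 weeks, RNVU1-6 -1.37 and DUSP1 -0.54. ATF4, from the unfolded protein response list, had -0.39. These genes were named for their 24 h values, which the difference between the changes uses again. That difference had an adjusted p of 0.0751 for ALG10B, RNVU1-6 and ATF4 and 0.0638 for DUSP1 by edgeR. None of these passed, unlike the entries 105376337 and 284702. AKR1C3 had a log2 fold change of 1.41 at 15 weeks, where only 1 exposed library was high: it had 4.74 and 4.19 CPM in the controls and 4.66 and 19.1 CPM in exposed cells. The metal gene SLC30A1 was at 0.06. The 15-week change itself had 29 called genes and 1924 with an unadjusted p under 0.05 in that fit, while that at 24 h had none and 584.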

How the data were processed

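Total RNA was depleted of ribosomal RNA, and stranded libraries were sequenced. The authors filtered reads with Rfastp, discarding those under 20 bases, mapped them to GRCh38 and counted them on genes with Rsubread; the submitters' processing notes name bcl2fastq, featureCounts and hg38. The deposited values are raw counts for 28395 genes named by Entrez number in 15 samples, of which 27745 matched a symbol in RefSeq (GRCh38). The strand and multi-mapping settings are not given in the sources used here.

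Software was edgeR 4.0.16 for the main tests, DESeq2 1.42.0, sva 3.50.0 and limma 3.58.1 for alternatives, all under R 4.3.3. The 4 samples at 24 h were fitted alone, so that their spread was not pooled with that of other time points. The steps were filterByExpr, TMM, glmQLFit and glmQLFTest, with Benjamini-Hochberg adjustment at 0.05. The study's own test was limma-voom with surrogate variables, tried as an alternative. Standard errors came from the fit's working weights and posterior quasi-dispersion, and intervals from 11.98 degrees of freedom. CPM are counts scaled by TMM. Fold needed is the fold at which a gene with its standard error reaches the p required by the adjustment. Gene lists are described by counts and medians, without a set test. The procedure was tested on simulated data.

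Genes named were 28 response genes, the 8 smallest p-values and 4 largest changes in each direction among genes at 1 CPM or more without overlap, list members with an unadjusted p under 0.05, and the study's panels, apart from items that are not reported here; RNAs that set a library apart, the stomach genes and other examples were chosen after their values were seen. The members and lists were chosen with earlier results of these data known. Alternatives were other fits (all 15 samples, the 8 of batch 1, DESeq2, limma-voom with and without surrogate variables, glmQLFit with legacy off), scalings, filters, thinned counts, the replicate block, an adjusted p under 0.1 and each replicate left out; leaving out replicates in the 15-week comparisons was added after seeing the data.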

Additional observations from a re-analysis of the deposited data

Results flagged for a closer look

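The changes at 24 h and at 15 weeks differed by the interaction term in 4 genes, each given as the log2 change at 15 weeks less that at 24 h. They were KRT7 (-1.69), PTGFR (-1.80) and the symbol-less entries 105376337 (1.35) and 284702 (1.18). The entry 284702 was at 19.1 and 16.5 CPM in the 24 h controls and 11.3 and 12.3 CPM in exposed cells, and at 14.5 and 13.8 against 21.5 and 21.1 CPM at 15 weeks. Their adjusted p-values by edgeR were 0.0313 to 0.0372 and over the 11 alternatives ranged from 7.28e-05 (KRT7) to 0.9999 (all 4, with all 15 samples fitted together). The direction was the same in all 11 alternatives for each of the 4. None of the 4 changes at 24 h had an adjusted p under 0.05 by edgeR on the filtered counts of the 4 libraries; without the filter that of the entry 105376337 had one (0.0389).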

How the results depend on the processing

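At 24 h the count of 0 called genes held in all alternatives that kept the 4 libraries and a filter on low counts. Without that filter edgeR called 14 genes, among them RNR2, RNR1, RNU1-4, LIPF and RPS16, in which exposed replicate 2 stood apart, and LOC100289230 (adjusted p 0.0193 by edgeR) and the entry 105376337 (0.0389), whose replicates lay close together; the fit then gave a median of 42314 degrees of freedom a gene instead of 11.98, so a gene's own replicate spread had little weight. With 1 replicate left out it called 1 to 56 genes. Genes with an unadjusted p under 0.05 numbered 397 and moved to 150 with DESeq2, 675 without the filter, 643 without control replicate 1 and 1030 without exposed replicate 1. Over 17 alternatives the count bounded under 2-fold was at most 13008, and that under 1.5-fold ran from 7198 (all 15 samples in 1 fit) to 10336. The genes tested differed too. The share bounded under 2-fold ran from 60.2% without the filter to 92.7% with at least 10 counts in each sample. It was 73.1% with all 15 samples in 1 fit and 75.2% with limma-voom and surrogate variables. The share bounded under 1.5-fold ran from 43% (all 15 samples in 1 fit) to 71.9%.

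The labels give the groups the same replicate numbers but do not say that a number marks a shared culture or day. Same-numbered libraries at 24 h did not deviate together (correlation across genes -0.0887, 2 pairs); with the replicate block, 0 genes were called and 329 had an unadjusted p under 0.05. The difference between the changes at 24 h and 15 weeks, called in 4 genes, was called in 0 with all 15 samples fitted together, in 0 with the replicate block, in 54 with DESeq2 and in 0 to 121 with 1 replicate left out; the cause was not tested. The comparison of controls called 4174 genes with all 15 samples fitted together.

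Of the list medians, those of DNA replication, the EMT panel, fatty acid synthesis and lysosome genes turned sign under upper-quartile scaling and DESeq2 size factors, and that of hypoxia genes under the former, all within 0.03 of 0. With 1 replicate left out, the medians of the NRF2, metallothionein, aryl hydrocarbon receptor, heat shock, cholesterol, uptake, mitosis, ribosomal protein and OXPHOS lists kept their sign and each of the others turned at least once, among them the lung cancer panel (to 0.07), p53 targets (0.04), ER stress (-0.04), interferon (-0.03), mitochondrial (-0.10) and immediate early genes (0.15). The fits with 1 replicate left out ran the filter on low counts again, so the tested members of a list could differ between them. Depth limits the scarce transcripts: below 1 CPM the bound of 2-fold held for 9.66% of genes.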
